A study of Mus musculus with 8 samples.

Results

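The leukotriene pathway genes described here are 6 mouse genes chosen by name: Alox5, Alox5ap, Lta4h, Ltc4s, Cysltr1 and Ltb4r1. All 6 were found among the 52636 gene identifiers counted, and all 6 were among the 13847 genes that passed the filter on low counts. Ltc4s and Ltb4r1 passed that filter only through the group in which they were high. RNA was sequenced from primary microglia of wild-type C57BL/6 mice (C57BL/6N pups in the study's methods), shaken off mixed glial cultures of neonatal brains and kept in medium with 10% serum and 10 ng/ml of the growth factor CSF-1. The LPS group (4 libraries) received 5 µg/ml of the bacterial cell wall component lipopolysaccharide for 24 h and the vehicle group (4 libraries) received vehicle for the same time, so that serum and CSF-1 were common to both. The comparison asks how LPS changed the transcripts of these cells. The libraries are labelled as biological replicates, but the labels do not say that each came from a separate culture or litter, and p-values measure the spread between these samples.

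Leukotrienes are lipid mediators made from arachidonic acid, chiefly by cells of the myeloid lineage. Cytosolic phospholipase A2 frees the acid from membranes, 5-lipoxygenase with its partner FLAP turns it into the unstable epoxide LTA4, and LTA4 is then either hydrolysed to the chemoattractant LTB4 or joined to glutathione to give LTC4, the parent of the cysteinyl leukotrienes LTD4 and LTE4. LTB4 draws in neutrophils and other leukocytes through the receptor BLT1, whereas the cysteinyl leukotrienes act through their own receptors on smooth muscle, vessels and myeloid cells, microglia included.

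The libraries held 20071921 to 30604447 counts. All 8 microglial markers examined were present in both groups, with a summed level of 8009 to 9136 counts per 1000000 (CPM) in vehicle and 1199 to 1584 CPM after LPS, and 6 of the 8 were lower after LPS. CPM here are counts divided by library totals rescaled with TMM factors, which ran from 1.21 to 1.32 in vehicle and from 0.70 to 0.83 after LPS. Summed levels of markers of other brain cells in vehicle and after LPS were 6.53 to 26.7 and 35.5 to 110 CPM for 5 astrocyte markers, 94.5 to 141 and 22.2 to 26.6 CPM for 6 markers of the oligodendrocyte lineage, 26.7 to 72.5 and 113 to 208 CPM for 6 endothelial and fibroblast markers, and 5.84 to 16.3 and 0.70 to 4.61 CPM for 4 neuronal markers. The higher astrocyte sum came from Gja1, at 0.639 to 1.07 CPM in vehicle and 28.9 to 98.1 CPM after LPS, while Gfap and Aqp4 fell. Most of the endothelial and fibroblast sum was Flt1, at 25.0 to 71.8 CPM in vehicle and 86.3 to 197 CPM after LPS. Of those 6 markers 3 rose, and Cldn5 had no counts in any library. In bulk RNA, fewer cells of a type and less RNA per cell cannot be told apart.

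Among the 6 genes the largest changes were those of Ltc4s and Ltb4r1, in opposite directions. Ltc4s, the synthase of LTC4, fell from 224 counts over the 4 vehicle libraries to 2 counts over the 4 LPS libraries, and Ltb4r1, the LTB4 receptor, rose from 2 counts to 171. Alox5 (5-lipoxygenase) fell 4.90-fold and Lta4h (LTA4 hydrolase) fell 1.38-fold. Alox5ap (FLAP) and the cysteinyl leukotriene receptor Cysltr1 did not pass the test. In edgeR's quasi-likelihood test with Benjamini-Hochberg adjustment over all tested genes, 4 of the 6 members thus passed at an adjusted p under 0.05, 1 higher and 3 lower. In the same test 64.1% of all tested genes passed, 30.3% higher and 33.8% lower, so the number of members called was near the background. The count was also 4 of 6 with upper-quartile scaling, where 65.5% of all tested genes passed. With DESeq2 it was again 4 of 6, where 50% of 19491 genes passed. That wider set includes genes too low for the edgeR filter, so its share is not like the others. The main test did not pair libraries by replicate number. With that number as a block in edgeR, 5 of 6 members passed, against 65.3% of all tested genes. The median log2 fold change of the members was -0.52, against -0.11 over all tested genes. The same 4 members had groups that did not overlap in CPM, which was so for 60.2% of all tested genes. These 4 include Ltc4s and Ltb4r1, which passed the filter on low counts only through the group in which they were high.

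**Figure D1:**
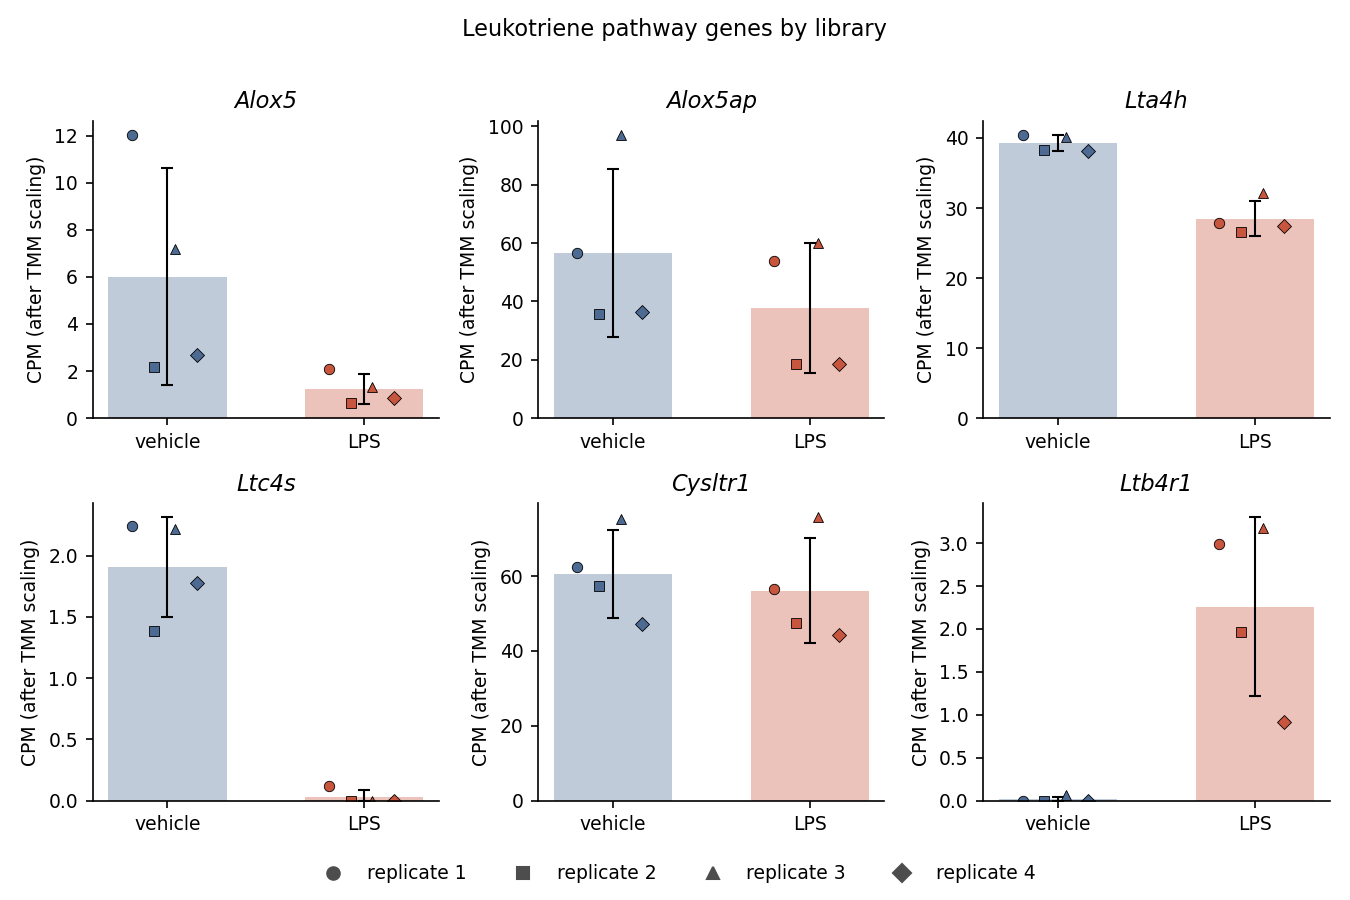
CPM after TMM scaling (vertical axis, linear, from 0) of each of the 6 genes in vehicle and LPS libraries; bars are means of 4 libraries, error bars the SD (cut at 0), and symbols the replicates. Alox5, Lta4h and Ltc4s lay lower in all LPS libraries than in any vehicle library, Ltb4r1 lay higher, and Alox5ap and Cysltr1 overlapped.

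The promoters of the 3 members with the largest changes are shown for the letters they hold at their starts. Each run gives the 250 bases before the RefSeq start on GRCm38.p6, 5′ to 3′ on the strand of the gene, and capitals mark matches to the motifs searched. The Alox5 window is chr6:116461179-116461428 (minus strand), the Ltc4s window is chr11:50238533-50238782 (minus strand) and the Ltb4r1 window is chr14:55765712-55765961 (plus strand).
Alox5: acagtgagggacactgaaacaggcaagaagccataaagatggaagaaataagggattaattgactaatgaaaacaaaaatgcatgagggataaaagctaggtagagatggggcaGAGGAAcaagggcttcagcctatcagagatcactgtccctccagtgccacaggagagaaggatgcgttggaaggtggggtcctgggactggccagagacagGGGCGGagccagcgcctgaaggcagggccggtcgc
Ltc4s: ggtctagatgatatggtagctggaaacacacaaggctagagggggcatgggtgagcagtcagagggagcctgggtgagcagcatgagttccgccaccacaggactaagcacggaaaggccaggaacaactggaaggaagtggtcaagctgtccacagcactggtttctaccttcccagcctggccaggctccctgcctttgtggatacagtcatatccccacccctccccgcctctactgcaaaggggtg
Ltb4r1: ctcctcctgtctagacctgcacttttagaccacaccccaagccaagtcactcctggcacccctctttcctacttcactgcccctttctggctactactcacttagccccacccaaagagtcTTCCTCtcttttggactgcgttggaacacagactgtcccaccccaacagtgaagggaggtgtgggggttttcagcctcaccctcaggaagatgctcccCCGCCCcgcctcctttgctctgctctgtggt
Both strands were searched, and the 50 bases after the start were included in the search. GGGCGG, a GC box of the kind known to drive 5-lipoxygenase transcription, began 35 bases before the Alox5 start and lay on the opposite strand 31 bases before the Ltb4r1 start, and 35.6% of all 32817 promoters of this length hold it. GAGGAA, the core bound by PU.1, a factor of the myeloid lineage, was found in all 4 of the member promoters at hand, those of Alox5, Lta4h, Ltc4s and Ltb4r1, against 28.3% of all promoters. In the Ltc4s promoter its match lay after the start, outside the printed bases, and so nothing is capitalised there. Neither TGANTCA, the AP-1 site, which 7.81% of promoters hold, nor the NF-kB site, which 8.46% hold, was found in any of the 4. No 2 matches overlapped. A match in these letters is a description and not a bound site. Promoters of Alox5ap and Cysltr1 were not analysed here.

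Alox5 encodes 5-lipoxygenase, the enzyme that commits arachidonic acid to leukotrienes. The gene (ENSMUSG00000025701) lies on the minus strand at chr6:116410077-116461178 (GRCm38, as are all positions given). In vehicle it had 344, 63, 226 and 75 counts in replicates 1 to 4, or 12.04, 2.18, 7.17 and 2.66 CPM. After LPS it had 35, 12, 28 and 16 counts, or 2.09, 0.653, 1.31 and 0.866 CPM. Replicates 1 and 3 were the high libraries in both groups, and the highest LPS library lay just under the lowest vehicle library. The vehicle libraries spanned a 5.52-fold range, the widest in vehicle of any member with counts in every library. The log2 fold change was -2.29 with a standard error of 0.60 (edgeR adjusted p = 0.0073). It was lower after LPS in 4 of 4 same-numbered pairs, with differences of -2.27, -1.22, -2.09 and -1.21 on the log2(CPM + 0.5) scale. Without vehicle replicate 1, its highest library, the log2 fold change was -1.68 (edgeR adjusted p = 0.025).

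Alox5ap encodes FLAP, the membrane protein that presents arachidonic acid to 5-lipoxygenase. The gene (ENSMUSG00000060063) lies on the plus strand at chr5:149264767-149288153, and 13.3% of its exonic bases are shared with the antisense gene Gm19719 on the opposite strand. Because the sources used here do not state whether counting used strand, reads of the pair may not be separable. In vehicle its level was 56.5, 35.8, 97.1 and 36.5 CPM in replicates 1 to 4, and after LPS it was 53.7, 18.4, 60.1 and 18.6 CPM. As for Alox5, replicates 1 and 3 were high in both groups, and here the groups overlapped. The log2 fold change was -0.58 with a standard error of 0.46 and a 95% interval from -1.62 to 0.45 (edgeR adjusted p = 0.29). Same-numbered libraries deviate together in these data, and in the fit with the replicate number as a block the change was -0.67 (edgeR adjusted p = 0.0083), with lower values in 4 of 4 pairs. In that fit 5 of 6 members passed, against 65.3% of all tested genes. Without vehicle replicate 3 the unblocked log2 fold change of Alox5ap was -0.13.

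Markers of border-associated macrophages moved with the groups and in part with the replicates. Of 5 such markers 4 had more than 3 counts in some library, 2 fell after LPS and Lyve1 had at most 3 counts everywhere. Their summed level was 903 to 1673 CPM in vehicle and 538 to 971 CPM after LPS, highest in replicate 3 and lowest in replicate 1 of each group, an order unlike that of Alox5. Pf4, 1 of the markers that fell, was higher in replicates 1 and 3 than in 2 and 4 of each group, at 39.2, 28.2, 64.6 and 23.5 CPM in vehicle and 26.6, 7.73, 14.9 and 6.92 CPM after LPS. The more abundant Mrc1 and Ms4a7 were lowest in replicate 1 in vehicle. Ms4a7 did not pass the test (edgeR adjusted p = 0.059) and was higher after LPS in every same-numbered pair, at 339, 476, 667 and 422 CPM in vehicle and 467, 760, 917 and 732 CPM after LPS. The part of these cells in the levels of Alox5 and Alox5ap was not tested.

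Lta4h encodes LTA4 hydrolase, the zinc enzyme that makes LTB4. The gene (ENSMUSG00000015889) lies on the plus strand at chr10:93453411-93484875. Its level was 40.4, 38.3, 40.2 and 38.2 CPM in vehicle and 27.8, 26.5, 32.1 and 27.4 CPM after LPS. The libraries of each group were tightly clustered, the highest vehicle library being 1.06-fold the lowest, and the groups did not overlap. The log2 fold change was -0.46 with a standard error of 0.09 (edgeR adjusted p = 0.0017), and the value was lower after LPS in 4 of 4 same-numbered pairs. This was the smallest change among the 4 members that passed, and it was measured with the smallest standard error.

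Ltc4s encodes LTC4 synthase, which joins LTA4 to glutathione. The gene (ENSMUSG00000020377) lies on the minus strand at chr11:50236461-50238616, and 26.4% of its exonic bases are shared with the antisense gene Gm26542. In vehicle it had 64, 40, 70 and 50 counts, or 2.24, 1.38, 2.22 and 1.78 CPM. After LPS it had 2 counts in replicate 1, or 0.12 CPM, and 0 in replicates 2, 3 and 4, where 3 counts would be 0.14 to 0.163 CPM. A low level in vehicle was thus at or under the limit of detection in every LPS library. The pooled level was 71.7-fold lower after LPS, with an exact 95% counting interval of 19.6 to 596, which covers counting error only. The quasi-likelihood test gave an adjusted p of 6e-05 (edgeR). The fitted log2 fold change of -5.89 depends on the prior count given to empty libraries, and was -8.58 without LPS replicate 1. Mast cells and eosinophils are known for this enzyme. Of 8 mast cell markers, 7 had at most 3 counts in every library, all except Kit, and the list summed to 0.76 to 5.08 CPM in vehicle and 0.98 to 2.93 CPM after LPS. Of 5 eosinophil and basophil markers, Epx, Prg2 and Mcpt8 had at most 3 counts in every library, 1 marker fell, and the list summed to 22.2 to 41.4 CPM in vehicle and 5.69 to 10.8 CPM after LPS, nearly all of it from the chemokine receptor gene Ccr3. The remaining marker, Siglecf, had 54, 22, 8 and 18 counts in vehicle and 2, 5, 0 and 1 after LPS. The part of mast cells and eosinophils in the level of Ltc4s was not tested.

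Cysltr1 encodes the first cysteinyl leukotriene receptor, a G-protein-coupled receptor that prefers LTD4. The gene (ENSMUSG00000052821) lies on the minus strand at chrX:106574346-106603679. Its level was 62.4, 57.3, 75.3 and 47.2 CPM in vehicle and 56.7, 47.6, 75.7 and 44.4 CPM after LPS. The groups overlapped almost wholly, and replicate 3 was highest and replicate 4 lowest in both. The log2 fold change was -0.11 with a standard error of 0.19 and a 95% interval from -0.54 to 0.32 (edgeR adjusted p = 0.63), an interval that leaves room for small changes either way. Without vehicle replicate 3 the value was 0.068, also short of the threshold.

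Ltb4r1 encodes BLT1, the high-affinity LTB4 receptor that guides leukocytes. The gene (ENSMUSG00000046908) lies on the plus strand at chr14:55765962-55768494. In vehicle it had 2 counts in replicate 3, or 0.063 CPM, and 0 in the other libraries, where 3 counts would be 0.104 to 0.107 CPM. After LPS it had 50, 36, 68 and 17 counts, or 2.99, 1.96, 3.17 and 0.920 CPM. Every LPS library was above every vehicle library, and replicate 4 was the lowest of the LPS libraries. The pooled level was 134-fold higher after LPS, with an exact 95% counting interval of 36.4 to 1112 (edgeR adjusted p = 5.5e-05). The fitted log2 fold change was 6.68 and was 8.73 without vehicle replicate 3. Neutrophils and monocytes are the cells best known for this receptor. Of 8 neutrophil markers, 6 had at most 3 counts in every library, Elane, Mpo and Ly6g among them, and the list summed to 0.069 to 0.875 CPM in vehicle and 572 to 1176 CPM after LPS, nearly all of it from S100a8, a gene that macrophages can also induce. The 4 monocyte markers all had more than 3 counts in some library, 1 of them rose, and they summed to 1.78 to 3.39 CPM in vehicle and 25.0 to 68.3 CPM after LPS, and their part in the level of Ltb4r1 was not tested. Read on the sense strand, no 50-base window of the transcripts of the 6 members was found in the transcripts of another gene. The antisense overlaps of Alox5ap and Ltc4s are not covered by that search.

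Scaling set how low the members that changed least appeared. With library totals alone, a setting chosen after the data were seen, all 6 members passed, 1 higher and 5 lower, against 75.4% of all tested genes, 14.4% higher and 61.1% lower. That setting also moved the median log2 fold change of all tested genes from -0.11 to -0.79 and the share of called genes that were higher from 47.2% to 19.0%. Relative to the median of all tested genes, a scale on which a shift common to all genes cancels by construction, the values were these: Alox5ap lay at -0.47 with TMM factors and -0.48 with totals, Lta4h at -0.35 and -0.36, and Cysltr1 at 0.00077 and -0.0079. Alox5 lay at -2.18 and -2.16 on the same relative scale.

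**Figure D2:**
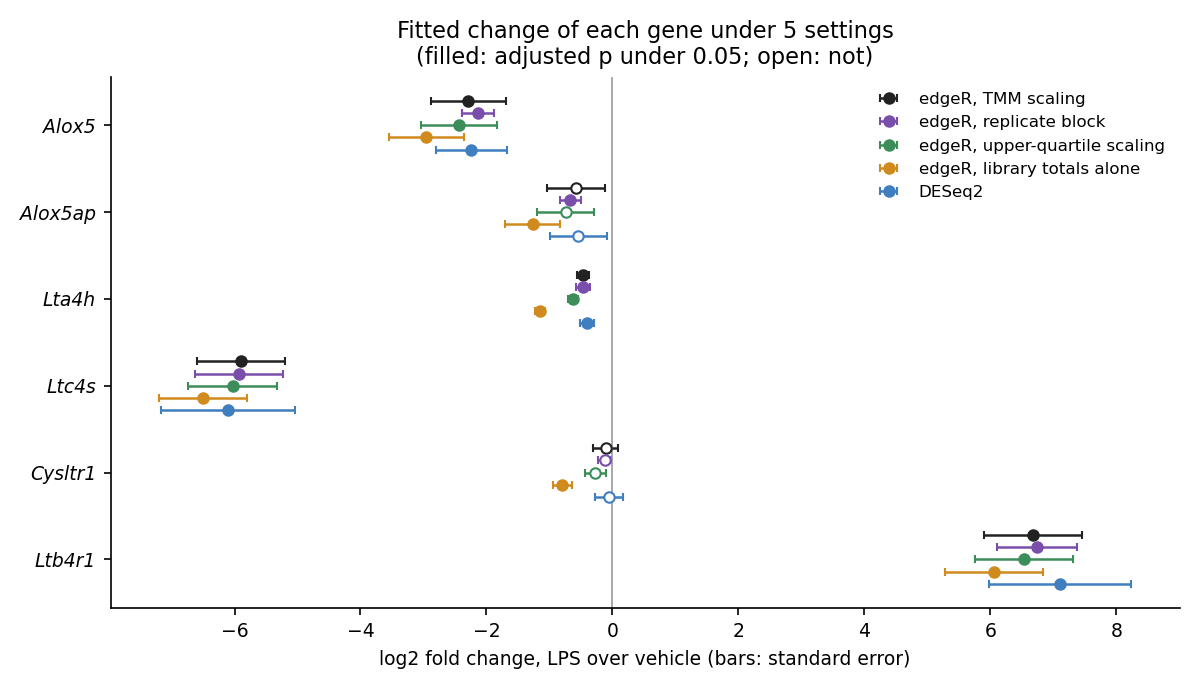
Fitted log2 fold change of each gene (horizontal axis, LPS over vehicle, bars the standard error) under 5 settings; filled points passed at an adjusted p under 0.05. Alox5, Lta4h, Ltc4s and Ltb4r1 are filled under all 5, Alox5ap only under the replicate block and library totals, and Cysltr1 only under library totals.

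Levels of different genes were compared per length, as CPM per kilobase of exon (RPKM). In vehicle the order was Alox5ap at 39.8 ± 20.2 RPKM, Cysltr1 at 11.8 ± 2.27, Lta4h at 6.44 ± 0.19, Ltc4s at 1.88 ± 0.40, Alox5 at 1.46 ± 1.12 and Ltb4r1 at 0.011 (SD, n = 4). Only the neighbours Ltc4s and Alox5 had ranges that overlapped. After LPS the order was Alox5ap at 26.6 ± 15.7 RPKM, Cysltr1 at 10.9 ± 2.74, Lta4h at 4.66 ± 0.41, Ltb4r1 at 1.62 ± 0.75, Alox5 at 0.30 ± 0.16 and Ltc4s at 0.030 (SD, n = 4), where only the ranges of Alox5ap and Cysltr1 overlapped. With these lengths Alox5ap, Cysltr1 and Lta4h held the first places in that order in both groups, while Ltb4r1 moved from the last place to the fourth and Ltc4s from the fourth to the last. When the length of the longest transcript was used in place of all exons, Lta4h in vehicle stood at 12.2 ± 0.37 RPKM (SD, n = 4), above Cysltr1 in 3 of 4 libraries, and after LPS it stood at 8.83 ± 0.77 RPKM (SD, n = 4), below Cysltr1 in 4 of 4. The ranges of the pair overlapped in both groups, so their order depends on the length used.

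**Figure D3:**
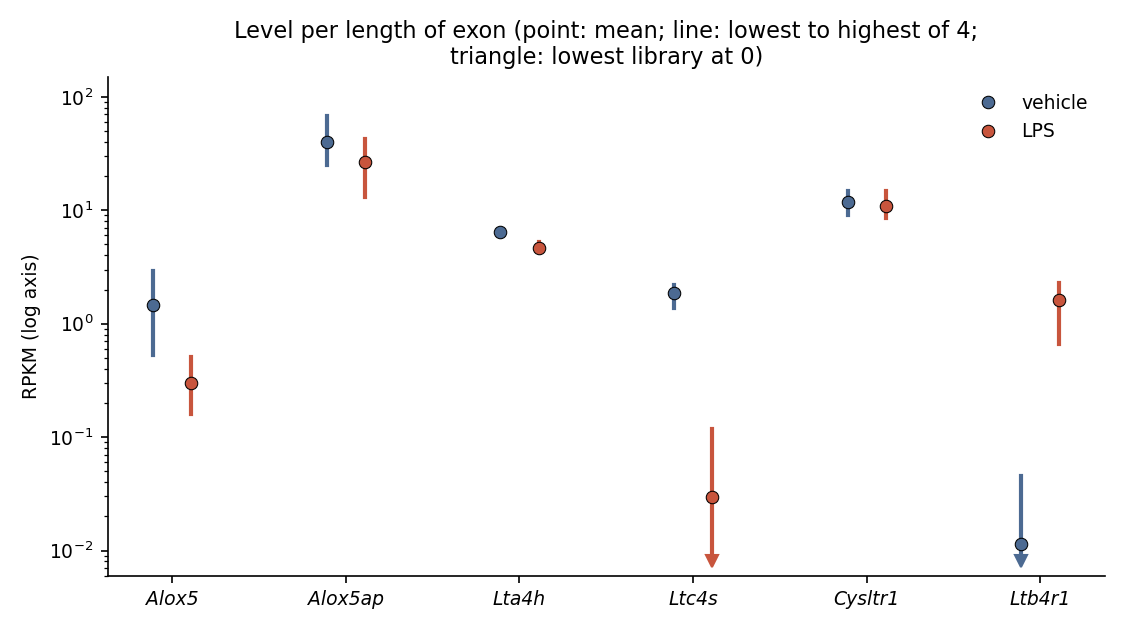
RPKM (vertical log axis) of each gene in vehicle and LPS; points are means of 4 libraries, lines run from the lowest to the highest library, and triangles mark a lowest library at 0. Alox5ap and Cysltr1 stand highest in both groups, and Ltc4s and Ltb4r1 exchange the low end of the scale.

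Ratios of counts within a library need no scaling between libraries, and 3 were computed. The ratio of Alox5ap to Alox5, the helper against its enzyme, was 4.69, 16.3, 13.5 and 13.6 in vehicle and 25.3, 27.1, 45.2 and 20.9 after LPS. Every LPS library held more Alox5ap per Alox5 than any vehicle library, and vehicle replicate 1 was the low one. On the log2 scale the mean rose from 3.45 ± 0.82 to 4.83 ± 0.48 (SD, n = 4), by 1.38 (exact permutation test, p = 0.0286, adjusted over the 3 ratios 0.0286). The ratio of Ltc4s to Lta4h, the enzymes that compete for LTA4, had a log2 mean of -4.38 ± 0.29 in vehicle and -9.47 ± 1.31 after LPS, with 0.5 added to each count (SD, n = 4). The ratio of Cysltr1 to Ltb4r1, the receptors of the opposite branches, had a log2 mean of 11.19 ± 0.88 in vehicle and 4.73 ± 0.57 after LPS (SD, n = 4). These 2 ratios restate the near absence of Ltc4s after LPS and of Ltb4r1 in vehicle and are given as descriptions. The p of the first ratio, two-sided, is the smallest that 4 libraries against 4 allow. That ratio is not independent of the values of its genes given above. Adjustment left its p unchanged because the other 2 ratios, set apart by counts near 0, had the same p. The adjusted value therefore adds nothing to the unadjusted one. Where a member stood at 0 the size of the log2 ratio depends on the 0.5 that was added.

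**Figure D4:**
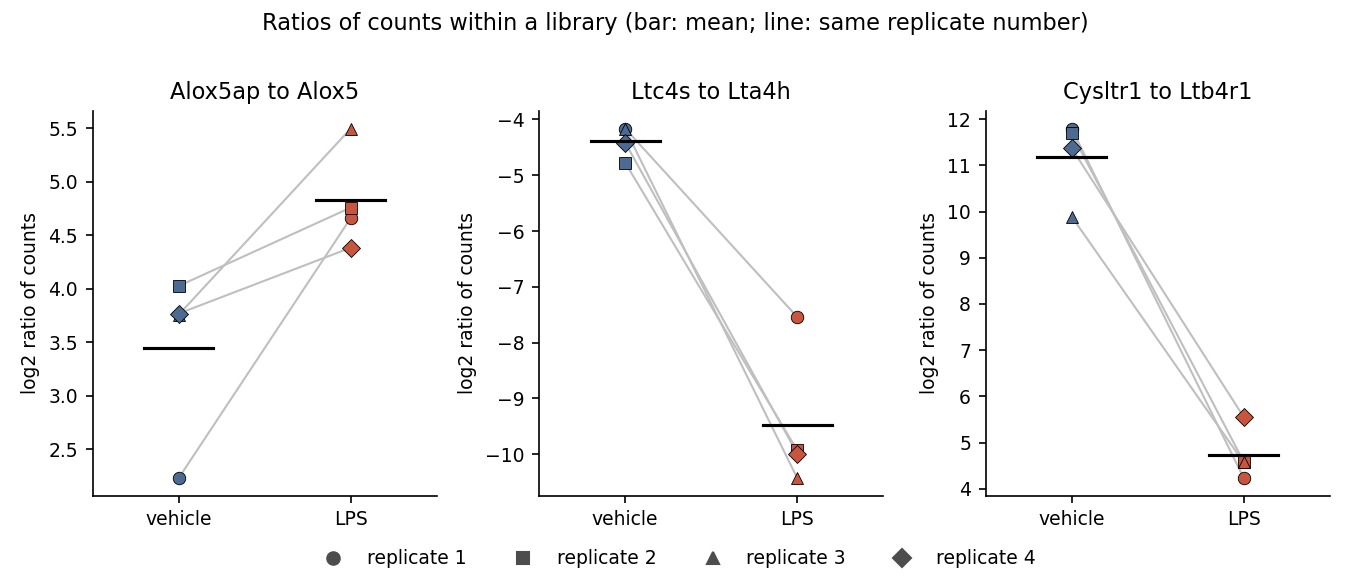
Log2 ratio of counts (0.5 added to each) of 3 gene pairs in each library; symbols are replicates, black bars means of 4, and grey lines join libraries of the same replicate number. In all 3 panels the groups are apart, the first ratio being higher and the others lower after LPS in 4 of 4 pairs.

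Genes that act beside the members were counted from fixed lists. Of 16 partners of the pathway, 9 were tested, 1 rose, 3 fell and 5 did not pass, with a median log2 fold change of 0.19. Over all tested genes 30.3% were called higher and 33.8% lower, a share of lower calls near that of the partners. Ltb4r2, Oxgr1, Gpr17, Ggt1, Dpep1, Dpep3 and Cyp4f14 were too low to be tested. Abcc1, a transporter that exports LTC4, rose from 111 ± 38.8 to 389 ± 135 CPM (SD, n = 4), a log2 fold change of 1.81 (edgeR adjusted p = 0.00036). Both tested enzymes that trim cysteinyl leukotrienes outside the cell fell. Ggt5, which cuts LTC4 to LTD4, fell by 3.38 on the log2 scale (edgeR adjusted p = 0.00055), from between 0.934 and 5.26 CPM to between 0.233 and 0.272 CPM. It had 19 counts over the LPS libraries and passed the filter on low counts only through vehicle. With at least 10 counts required in every library, 6 partners were tested, 1 rose and 2 fell. Of all 11203 genes tested in that setting, 3595 were higher and 3865 lower. Dpep2, a dipeptidase that cuts LTD4 to LTE4, fell by 1.52 (edgeR adjusted p = 0.0037), and a second gene record of the same name shares 37.3% of its exonic bases. Mgst3, a microsomal glutathione transferase related to Ltc4s and Alox5ap, fell by 3.73 (edgeR adjusted p = 1.1e-06), from 15.5 ± 2.37 to 1.15 ± 0.35 CPM (SD, n = 4). Cysltr2, the other cysteinyl leukotriene receptor, stood at 0.32 ± 0.21 CPM in vehicle and 0.89 ± 0.60 CPM after LPS (SD, n = 4) and did not pass (log2 fold change 1.47, edgeR adjusted p = 0.081). With the replicate block it passed (edgeR adjusted p = 0.026), as it did without LPS replicate 1 (1.83, edgeR adjusted p = 0.016).

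Upstream of 5-lipoxygenase, the genes for release and re-esterification of arachidonic acid included more called higher than lower. Of 15 genes 12 were tested, 8 rose, 3 fell and 1 did not pass, with a median of 0.92, against 30.3% of all tested genes called higher and 33.8% lower. With library totals alone 3 rose and 4 fell, against 14.4% higher and 61.1% lower over all tested genes, so that this count rests on the scaling. Pla2g4a, the cytosolic phospholipase that supplies arachidonic acid for leukotrienes, rose from 61.3 ± 4.87 to 398 ± 81.0 CPM (SD, n = 4), a log2 fold change of 2.70 (edgeR adjusted p = 8.8e-07) that was 2.01 with totals alone. The secreted phospholipase Pla2g5 rose from 7 counts over the vehicle libraries to 957 over the LPS libraries. Pla2g15, a lysosomal phospholipase, fell by 2.69 on the log2 scale, and Mgll, monoacylglycerol lipase, fell by 1.93. Pla2g5 passed the filter on low counts only through the LPS group and Mgll only through vehicle. With at least 10 counts required in every library, 10 genes of this list were tested, 7 rose and 2 fell. Of all 11203 genes tested in that setting, 3595 were higher and 3865 lower. The phospholipase that feeds the pathway thus stood higher and Alox5 lower in the same 4 LPS libraries.

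Of 9 other lipoxygenases and receptors of lipoxins and resolvins, 4 were tested, 3 rose and 1 fell, against 30.3% and 33.8% of all tested genes. Fpr2, a formyl peptide receptor that also binds lipoxin A4, rose from 16.8 ± 11.4 to 273 ± 44.3 CPM (SD, n = 4), and Gpr18 rose from 1.11 ± 0.39 to 45.5 ± 6.10 CPM (SD, n = 4). Alox12, another lipoxygenase, rose from 9 counts to 61 over 4 libraries each, and it passed the filter on low counts only through the LPS group. With at least 10 counts required in every library, 3 genes of this list were tested, 2 rose and 1 fell. Of all 11203 genes tested in that setting, 3595 were higher and 3865 lower. Cmklr1 fell by 1.10 on the log2 scale (edgeR adjusted p = 0.016), a call that was lost without vehicle replicate 1 (-1.01, edgeR adjusted p = 0.054) and without vehicle replicate 3 (-0.89, edgeR adjusted p = 0.065). Alox15, at 50 counts over the vehicle libraries and 1 over the LPS libraries, did not pass the edgeR filter on low counts.

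The prostanoid enzymes draw on the same arachidonic acid. Of 9, 7 were tested, 4 rose, 2 fell and 1 did not pass, where 30.3% of all tested genes were higher and 33.8% lower. With library totals alone 2 rose and 4 fell, where 14.4% of all tested genes were higher and 61.1% lower. Ptgs2, the inducible cyclooxygenase, rose from 6.43 ± 4.10 to 10944 ± 1419 CPM (SD, n = 4), and Ptges, which makes prostaglandin E2, rose from 12.4 ± 14.6 to 2152 ± 555 CPM (SD, n = 4). Ptgs1, the constitutive cyclooxygenase, fell by 3.44 on the log2 scale, and Tbxas1, thromboxane synthase, fell by 1.38. The log2 fold change of Ptgs2 was 10.73, and none of Alox5, Alox5ap, Lta4h and Ltc4s rose.

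**Figure D5:**
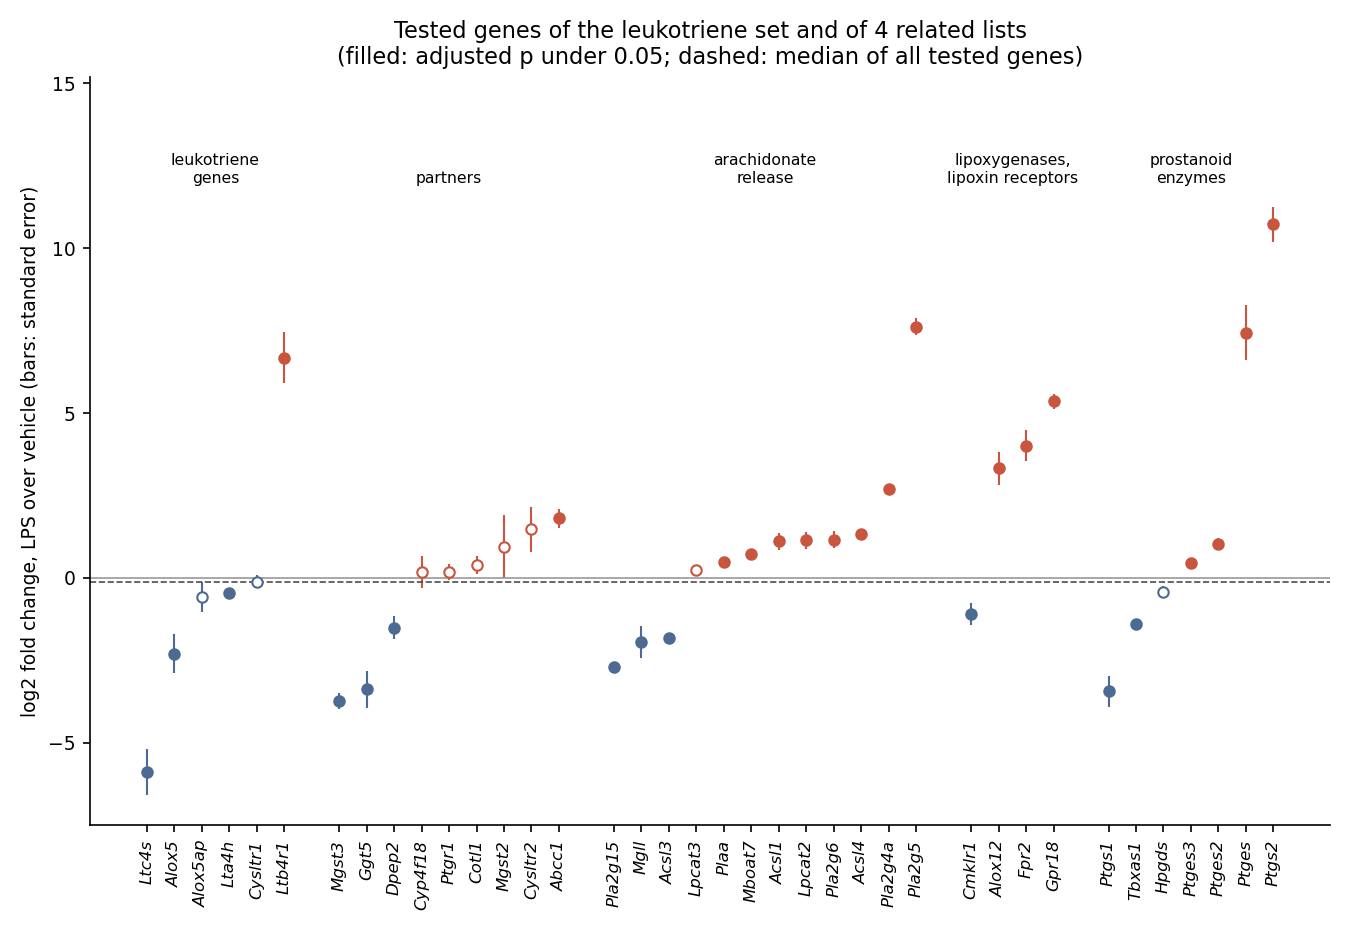
Log2 fold change, LPS over vehicle (vertical axis, bars the standard error), of each tested gene of the leukotriene set and of 4 fixed lists; filled points passed at an adjusted p under 0.05 and the dashed line is the median of all tested genes, -0.11. Among leukotriene genes only Ltb4r1 is filled above 0, while Ptgs2, Ptges and Pla2g5 stand above 7.

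The genes most like each member were found by Pearson's r of log2(CPM + 0.5) over the 8 libraries, among 8379 genes. Alox5 was followed most closely by Hnrnpll (r = 0.975) and Tmcc1 (0.968), and Alox5ap by Hpse (0.985), the heparanase gene, and Arrb1 (0.943). Lta4h was most like Setd7 (0.996) and Arhgef6 (0.995). Ltc4s was most like Arl11 (0.999) and Hagh (0.997), both of which fell, from 84.1 to 31.5 CPM and from 18.3 to 4.21 CPM. Cysltr1 was most like Txnip (0.921), the lowest leading value among the 6 members. Ltb4r1 was most like Gm5483 (0.990), of the stefin A cluster of near-identical genes, and Vhl (0.989), which rose from 33.1 to 84.9 CPM. The 8 points share the LPS contrast, so for members that changed, r mostly repeats the difference between groups.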

How the data were processed

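RNA-seq libraries of primary mouse microglia, 4 treated with LPS and 4 with vehicle, were compared. Per the study's methods, the authors filtered and counted single-end 50-base reads with HTSeqGenie after aligning them to GRCm38 with GSNAP, keeping uniquely aligned reads, and deposited raw counts per Ensembl gene. The library kit and sequencer are named differently in the labels and the methods, and whether counting used strand is not given in the sources used here. Symbols came from a GENCODE annotation of GRCm38 and matched 52489 of 52636 identifiers; the others held 0.00512% of counts. The members and lists were chosen with earlier results of these data known.

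Counts were tested with edgeR 4.0.16 (R 4.3.3; TMM, filterByExpr with minimum count 10 and minimum total 15, quasi-likelihood fit on group, two-sided, Benjamini-Hochberg over 13847 genes, threshold 0.05). The fit was tested on simulated counts in which few genes changed, equally often up and down. Because far more genes changed here, that test does not cover the scaling of these data. Totals were 20071921 to 30604447 counts per library. A fold against 1 to 3 counts was given as a ratio of pooled CPM with an exact 95% interval. RPKM used the union of exons, and within-library ratios used 0.5 added to each count and an exact permutation test over all 70 divisions. Promoters were RefSeq's (GRCm38.p6), at hand for 4 members. Alternatives were DESeq2 1.42.0, other scalings and filters, leaving out each library, and a replicate block. Named were all members, the 4 largest called changes of each list, partners with an absolute log2 fold change of at least 1, and for each member the 2 genes most correlated with it (mean log2 CPM of at least 3), of which 1 is not reported here. Genes outside this rule named for a reason given beside them were chosen after their values were seen.

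The labels give both groups replicate numbers 1 to 4. Deviations from the group means correlated between same-numbered libraries with r = 0.363, 0.179, 0.177 and 0.110 over 8382 genes, each over 0.1. The numbers were therefore taken as pairs in the replicate block, the same-numbered differences and the exact sign flips given below. The main fit and the permutation test did not pair the libraries. Differently numbered libraries correlated between -0.197 and 0.141, and vehicle 2 with LPS 4 (0.141) and vehicle 4 with LPS 2 (0.122) exceeded the pair of number 4.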

Additional observations from a re-analysis of the deposited data

Results flagged for a closer look

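In 52 groups of 4 libraries, the gap between an end value and its neighbour, divided by the range, was set against Dixon's 95% critical value. Chance gives such a flag in about 1 of 20 groups, and 7 were found. In the members, the ratio of Alox5ap to Alox5 in vehicle was flagged (0.850) because replicate 1 held 4.69 Alox5ap counts per Alox5 count against 13.5 to 16.3 in the others. Ltc4s after LPS and Ltb4r1 in vehicle were flagged (1 for both) because 1 library held 2 counts and the other 3 held none.

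Among the related genes, Abcc1 was flagged in vehicle (0.950), where replicate 1 stood at 169 CPM and the lowest library at 88.8 CPM, and after LPS (0.843), where replicate 1 stood at 589 CPM and the lowest at 301 CPM. Ptges in vehicle was flagged (0.910) for replicate 1 at 34.2 CPM against 4.22 to 6.91 CPM. Mgst3 after LPS was flagged (0.969) for replicate 3 at 1.68 CPM against about 0.96 to 0.98 CPM.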

How the results depend on the processing

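With at least 10 counts required in every library, 4 members could be tested and 2 passed, since Ltc4s and Ltb4r1 are then left out by construction. Otherwise 4 members passed under DESeq2, DESeq2 size factors, upper-quartile scaling, no filter and each omission of 1 library, 5 with the replicate block and 6 with library totals alone. Of the fold changes of single members under alternatives, 84 kept direction and side of the threshold, 3 passed newly (Alox5ap under the block and totals, Cysltr1 under totals) and 1 turned direction (Cysltr1, 0.068 without vehicle replicate 3, its range without 1 library being -0.28 to 0.068), neither value past the threshold. Beyond Alox5ap, the block changed no other member's call, and of the related genes it added Cysltr2 and Hpgds (-0.44, edgeR adjusted p = 0.029).

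Exact sign flips over the same-numbered pairs, which pair libraries as the replicate block does, left the differences of log2 ratios at 1.38, -5.09 and -6.46 for Alox5ap to Alox5, Ltc4s to Lta4h and Cysltr1 to Ltb4r1, with an exact p of 0.125, the smallest 4 pairs allow. Leaving out 1 library gave 0.98 to 1.57, -5.73 to -4.77 and -6.89 to -6.25 in turn, with an exact p of 0.0571, the smallest 3 against 4 allow. Neither p can therefore pass the threshold.

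With the longest transcript as length, Lta4h moved to 12.2 RPKM in vehicle and 8.83 RPKM after LPS, and Ltc4s in vehicle to 2.66 RPKM. Depth limits Ltc4s after LPS and Ltb4r1 in vehicle, at 0 to 2 counts a library.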
